A study of Homo sapiens with 40 samples.

Results

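The regions described here are the CENP-A peaks on chromosome 10 that flank the centromere. A peak was included when it lay wholly within chr10:33000000-38000000 on the short arm (hg19), or in the 5.2 Mb window on the long arm that opens 54.9 kb before the end of the centromere gap, the run of 3200 kb at chr10:39154936-42354935 in which the reference has no sequence. The position of a peak was the only criterion. The rule took in 262 of 5748 peaks over 6 peak lists, with 30 of 408 in control, 37 of 952 after DAXX knockdown, 40 of 848 after HIRA knockdown, 27 of 940 after HJURP knockdown, 62 of 1018 after HIRA+DAXX knockdown and 66 of 1582 after HIRA+HJURP knockdown.

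CENP-A was mapped by native ChIP-Seq in SW480, an established human colon cancer cell line that overproduces CENP-A from its own gene. Chromatin was cut with micrococcal nuclease and CENP-A nucleosomes were pulled down with an anti-centromere serum, which as a class of reagent can recognise several centromere proteins. Cells were transfected with siRNA for 72 h against DAXX, HIRA, HJURP, HIRA and DAXX together, or HIRA and HJURP together. The control samples are labelled untreated, and the methods describe a control siRNA. Control and each single knockdown had 4 ChIP and 4 input libraries, and each double knockdown had 2 and 2, giving 40 libraries in all. The libraries of a condition had been merged into 1 list of replicated peaks. No value below therefore carries a replicate error, no test between conditions was possible, and each ratio compares 1 list with 1 list. The depth behind each peak is not known from the lists, which hold a start and an end but no height.

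CENP-A is the histone H3 variant that marks the centromere, the chromosome region on which the kinetochore forms. HJURP is the chaperone that places CENP-A at centromeres, whereas HIRA and DAXX are chaperones of histone H3.3. Human centromeres are built on alpha satellite, a tandem array of short monomers, some of which hold the CENP-B box, the binding site of the protein CENP-B. The pericentromeric flanks of several chromosomes hold other satellites, among them arrays of the 5-base word CATTC, whose complement is GAATG.

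All but 4 of the peaks lay in 3 kinds of tandem repeat, and the stretches printed here show what each kind looks like. All are from the plus strand of the GRCh37 reference, whose chromosomes are those of hg19. Overlapping or touching peaks of any list were joined into 47 sites, which are numbered outward from the centromere. Site 23, at chr10:42382791-42382990, is of the kind nearest the centromere gap and had a peak in the double knockdowns only. Every CATTC in it is in capitals.

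site 23: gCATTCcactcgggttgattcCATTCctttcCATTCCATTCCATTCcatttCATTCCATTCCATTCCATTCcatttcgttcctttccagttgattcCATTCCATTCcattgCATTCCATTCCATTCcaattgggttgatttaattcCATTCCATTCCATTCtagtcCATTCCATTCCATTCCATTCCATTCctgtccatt

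CATTC made up 55% of the bases of this stretch. Site 26, the widest site of the next kind, is shown at chr10:42392539-42392738 with every GAATG in capitals. There the word was spaced by other bases and made up 25% of the stretch.

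site 26: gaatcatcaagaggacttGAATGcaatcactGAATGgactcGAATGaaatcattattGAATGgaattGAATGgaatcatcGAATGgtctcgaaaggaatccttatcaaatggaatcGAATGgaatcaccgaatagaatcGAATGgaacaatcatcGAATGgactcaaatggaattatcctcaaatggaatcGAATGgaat

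Site 34, the site with the most CENP-B box cores, is shown at a pair of successive copies of a 340-base repeat, chr10:42531720-42531839 and chr10:42532060-42532179. The core was searched on both strands as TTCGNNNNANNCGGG, in which N is any base. It is in capitals and reads on the minus strand here. Over the 120 bases the copies were 82.5% identical.

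site 34, copy 1: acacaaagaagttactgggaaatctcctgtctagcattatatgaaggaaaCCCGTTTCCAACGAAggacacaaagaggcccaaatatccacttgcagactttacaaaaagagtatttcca
site 34, copy 2: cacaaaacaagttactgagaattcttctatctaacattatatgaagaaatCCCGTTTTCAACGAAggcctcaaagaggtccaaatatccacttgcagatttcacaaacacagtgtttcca

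A stretch with no peak in any list is shown for contrast. It is from the middle of the interval between the clusters of sites, at chr10:42468499-42468618 and, 172 bases further, chr10:42468671-42468790. These copies were 41.7% identical over 120 bases and held no core.

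no peak, copy 1: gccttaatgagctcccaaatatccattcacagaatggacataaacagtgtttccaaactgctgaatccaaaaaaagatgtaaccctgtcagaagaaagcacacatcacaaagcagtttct
no peak, copy 2: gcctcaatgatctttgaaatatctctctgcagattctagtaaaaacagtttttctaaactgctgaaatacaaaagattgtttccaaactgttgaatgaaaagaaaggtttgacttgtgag

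The peak-free stretch and sites 23, 31, 34, 35, 36, 42 and 44 were singled out after their values had been seen.

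All 262 peaks lay on the long arm. None was found in the 5 Mb short-arm window, where a count of 0 allows a share of up to 10% in control, 8.11% in DAXX, 7.5% in HIRA, 11.1% in HJURP, 4.84% in HIRA+DAXX and 4.55% in HIRA+HJURP. These limits cover counting error only. The long-arm peaks did not spread over their 5.2 Mb window either. Every one of them ended within 312.8 kb of the centromere gap. The first peak of each list began 14 to 36 bases from that gap. The rule names the peaks pericentromeric and ectopic, and by position they are outside the gap but adjoin it.

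The reference differed between the windows in the same way. The short-arm window ends at 38000000, before the gap start at 39154936, whereas the long-arm window reaches the gap. No short-arm tile therefore lies as near the gap as the long-arm sites. Arm and distance from the gap cannot be told apart in these windows. Of 4999 tiles of 1000 bp on the short-arm side, 2 held the 5-base repeat, none held the other repeats and none held a CENP-B box core. Of 4972 on the long-arm side, 75 held the 5-base repeat, 24 a 26-base repeat and 83 a repeat of the alpha satellite length, and 23 held a core. CATTC or GAATG in at least 2 tandem copies was found in 0.36% of the short-arm tiles and 1.83% of the long-arm tiles. A repeat alone was not accompanied by a peak everywhere, since 28 of the 77 tiles with the 5-base repeat, 16 of the 24 with the 26-base repeat and 20 of the 83 with the repeat of alpha satellite length touched a site. Within a stretch next to the gap that takes in every site, the counts were 28 of 35, 16 of 21 and 20 of 81.

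Between the short-arm window and the gap there is a further stretch of chromosome 10 that the rule leaves out. It held 1 to 5 peaks a list. The site chr10:38815678-38818839 was covered over 3108 to 3157 bases in all 6 lists and, like the innermost long-arm peaks, reached an assembly gap, here one that starts 4 bases before its end. It was the only site of that stretch found in every list.

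The 47 sites covered 46.1 kb and formed 4 clusters, with any sites less than 10 kb apart counted together. The first cluster, chr10:42354950-42409763, held 31 sites. After 117 kb without a peak came the second, chr10:42527235-42546156, with 10 sites. Across an assembly gap of 50 kb lay the third, chr10:42596721-42600573, with 3 sites, the first of them 33 bases from that gap. The last, chr10:42658166-42667773, held 3 sites. It had no peak in control, DAXX or HJURP, 1 in HIRA, 2 in HIRA+DAXX and 1 in HIRA+HJURP. The outermost, site 47 (chr10:42667614-42667773), is the peak farthest from the centromere gap.

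**Figure D1:**
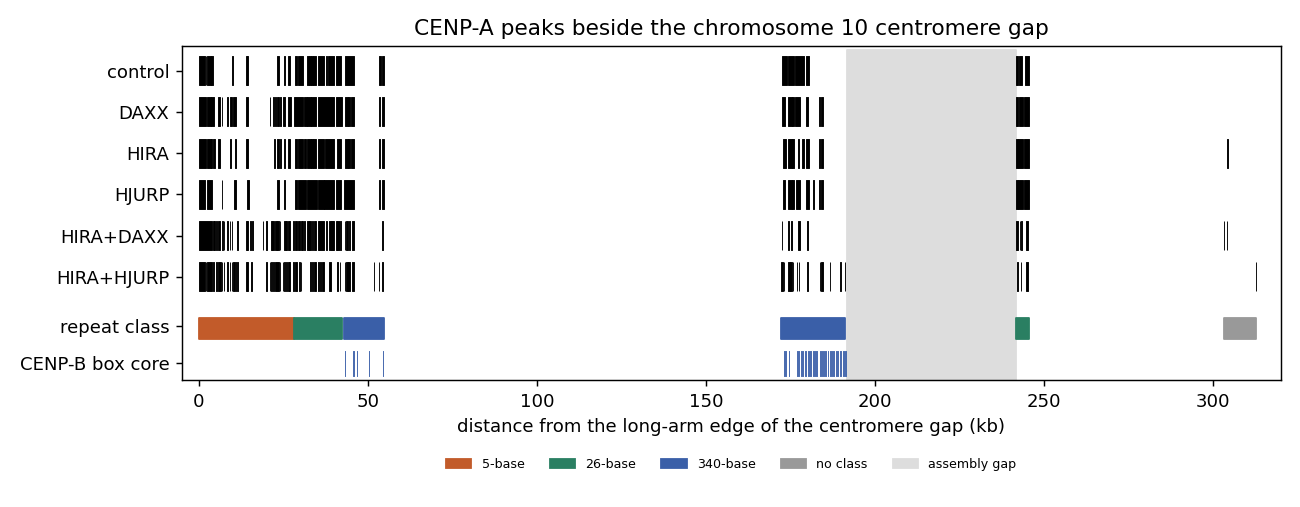
Peaks of the 6 lists (black bars, 1 row per list) by distance in kb from the long-arm edge of the centromere gap, with the repeat class of each run of sites (coloured bars), CENP-B box cores on either strand (blue ticks) and an assembly gap (grey). All lists have peaks in the first 3 clusters, with 117 kb free of peaks after the first, and the last cluster is empty in control, DAXX and HJURP.

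No peak overlapped an annotated gene (GENCODE release 44 lifted to GRCh37). The nearest were pseudogenes, KSR1P1 at chr10:42644758-42644997 between the third and last clusters and IGKV1OR10-1 at chr10:42680787-42681239 beyond the last. ZNF33B, the nearest protein-coding gene and a member of the zinc finger family, lies 715 kb from the gap on the minus strand, at chr10:43069633-43134018. All sites are therefore intergenic.

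Each site was put into a repeat class by the shift at which its sequence best matched itself. The first 28.1 kb of the first cluster held the 23 sites of the 5-base class. They were rich in CATTC, with 80.2 to 131 copies per kb, and held no GAATG and no CENP-B box core. The next 14.2 kb held 4 of the 7 sites of the 26-base class, and the third cluster held the other 3. These held 38.3 to 46.1 GAATG per kb and no core. Their self-identity was 0.501 to 0.526 at 26 bases and 0.459 to 0.473 at 5 bases, so this class also matched itself nearly as well at 5 bases. The remaining 4 sites of the first cluster and all 10 of the second were of the 340-base class, in which the best shift was the length of an alpha satellite monomer or of a pair of monomers, the latter being 340 bases. They held 22 cores in 10 sites, or 1.68 per kb. The 3 sites of the last cluster had no class. Along the second cluster the reference had 42 cores, and 34 of the 41 steps from core to core were within 5 bases of 340.

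The 117 kb between the first and second clusters was itself a tandem repeat, with a best shift of 172 bases. It had an identity of 0.44 at that shift, 0.37 at 343 bases and no core. The second cluster had 0.46 at 169 bases, 0.67 at 340 bases and 2.22 cores per kb. The stretches were thus alike near the length of a monomer and differed near that of a pair. The 340-base sites of the first cluster had 0.418 to 0.613 at 340 bases. The lowest of these, site 31 (0.418) and site 28 (0.477), had a peak in all 6 lists. The part of identity in where peaks were found was not tested. Of the 32-base words in the 117 kb, 73.0% occurred once in the reference, against 55.7% in the first cluster, 27.4% in the second and 46.5% in the third. Reads had been kept only at a mapping quality of 10 or more, which favours sequence found once. The other long stretch without peaks, the 57.6 kb between the third and last clusters, had 41.7%, and the last cluster had 60.6%. Stretches without peaks were thus both above and below the clusters in this share, and its part in where peaks were found was not tested.

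The number of peaks and the bases they covered did not move together across the lists. The peaks covered 29.5 kb in control, 36.4 kb after DAXX, 31.7 kb after HIRA and 30.2 kb after HJURP knockdown. They covered 24.6 kb after HIRA+DAXX and 22.4 kb after HIRA+HJURP knockdown. As deposited, the double knockdown lists had the most peaks and the least coverage. As ratios to control, peak number was 1.23 after DAXX, 1.33 after HIRA, 0.9 after HJURP, 2.07 after HIRA+DAXX and 2.2 after HIRA+HJURP knockdown. Coverage ratios were 1.23, 1.08, 1.02, 0.835 and 0.760 in the same order. Both directions of the double knockdowns turned with the treatment of narrow peaks. With peaks within 1000 bp merged, their coverage ratios were 1.15 and 1.08, and with only peaks of at least 500 bp, their peak number ratios were 0.75 and 0.5.

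All other peaks of the lists gave coverage ratios of 2.58 (DAXX), 1.67 (HIRA), 2.09 (HJURP), 0.692 (HIRA+DAXX) and 1.40 (HIRA+HJURP). In 4 of the 5 knockdowns the chromosome 10 ratio was the lower of the pair, and in HIRA+DAXX it was the higher. In step with this, the chromosome 10 peaks made up 5.34% of all covered bases in control, 2.63% after DAXX, 3.50% after HIRA, 2.68% after HJURP, 6.37% after HIRA+DAXX and 2.96% after HIRA+HJURP knockdown.

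Peaks were narrower in the double knockdowns. The median width was 626.5 bp in control, 765 bp for DAXX, 594 bp for HIRA and 648 bp for HJURP, against 285 bp for HIRA+DAXX and 239 bp for HIRA+HJURP. Peaks under 300 bp numbered 2 to 5 in control and the single knockdowns, 32 in HIRA+DAXX and 40 in HIRA+HJURP. Peaks of at least 1000 bp numbered 10 to 13 in the former and 2 and 3 in the latter. The other peaks of the lists showed the same split, with medians of 717.5 to 876 bp in control and the single knockdowns and of 272.5 and 276 bp in the double knockdowns. The double knockdown lists also came from 2 ChIP libraries rather than 4, and the number of replicates a peak had to overlap is stated as 3 with no separate rule for them. For width, number and coverage, double knockdown and number of libraries cannot be told apart. The paper also describes read depths that vary between replicates and either single- or paired-end sequencing, and their part was not tested.

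**Figure D2:**
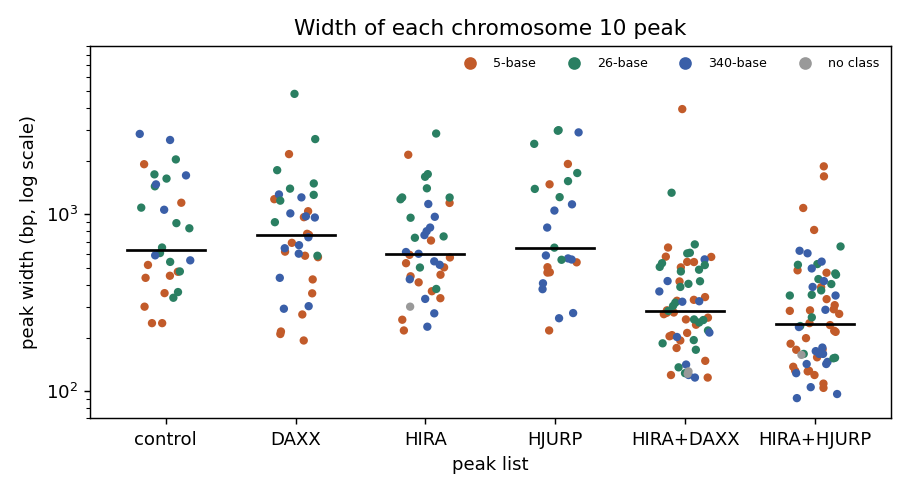
Width of every peak (bp, log scale) in each list, 1 point per peak coloured by the repeat class of its site, with the median as a black line. Medians are 594 to 765 bp in control and the single knockdowns and 239 and 285 bp in the double knockdowns, and points of all 3 repeat classes move down in the latter.

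Sites with exactly 1 peak in every list show the narrowing at fixed positions. At site 35, of the 340-base class at chr10:42534476-42535537, the peak was 1062 bp wide in control, 742 in DAXX, 763 in HIRA, 842 in HJURP, 119 in HIRA+DAXX and 168 in HIRA+HJURP. At site 31, of the same class at chr10:42409126-42409763, the widths were 586, 599, 542 and 563 bp in control and the single knockdowns and 123 and 146 bp in the double knockdowns. At site 44, of the 26-base class at chr10:42599077-42600573, the widths were 892, 1497, 1405 and 1394 bp, then 676 and 658 bp. Site 42, of the 26-base class at chr10:42596721-42597321, had widths of 475, 583, 500 and 553 bp, then 404 and 347 bp. At all 4 sites the double knockdown peaks were narrower than those of the other lists, and the difference was greater at the 340-base sites.

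Wide control peaks were also split. The widest control peak, chr10:42398026-42400881 in site 28 of the 340-base class, was 2856 bp. It was met by 3 DAXX peaks, 3 HIRA peaks, 1 HJURP peak, 4 HIRA+DAXX peaks and 4 HIRA+HJURP peaks. Of the 30 control peaks, 2 were met by more than 1 peak in DAXX, 3 in HIRA, 1 in HJURP, 7 in HIRA+DAXX and 8 in HIRA+HJURP. The opposite was seen at site 26 (chr10:42390231-42395046), where 3 control peaks lay under 1 DAXX peak of 4816 bp, the widest of all the lists.

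The share of control peaks that shared a base with a knockdown peak was high in each comparison. It was 30 of 30 for DAXX, where 86% of all control peaks in the genome did so. For HIRA it was 29 of 30 (96.7%, exact 95% interval 82.8 to 99.9), beside 84.3% of all. For HJURP it was 26 of 30 (86.7%, 69.3 to 96.2), beside 81.6%. HIRA+DAXX met 29 of 30, beside 74.8%, and HIRA+HJURP 28 of 30 (93.3%, 77.9 to 99.2), beside 83.8%. The intervals cover counting error only. All these comparisons used the same control list.

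By bases the retention differed more. Of the control coverage, 90.2% was also covered by DAXX, 85.4% by HIRA and 83.9% by HJURP peaks, but 60.0% by HIRA+DAXX and 51.3% by HIRA+HJURP peaks. Control-only coverage was 2.91 kb against DAXX, 4.30 kb against HIRA, 4.74 kb against HJURP, 11.8 kb against HIRA+DAXX and 14.4 kb against HIRA+HJURP. Of the control coverage elsewhere in the genome, 86.6% was also covered by DAXX, 79.7% by HIRA, 71.5% by HJURP, 39.96% by HIRA+DAXX and 54.6% by HIRA+HJURP peaks. With only peaks of at least 500 bp, HIRA+DAXX met 55% and HIRA+HJURP 35% of the chromosome 10 control peaks.

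Gained peaks, those with no base in a control peak, made up a smaller share on chromosome 10 than over each whole list. The same held near the centromere gaps of chromosomes 7 and 16, but not near that of chromosome 1 for HIRA and HJURP. The shares of these chromosomes are given below. On chromosome 10 gained peaks were 11 of 37 for DAXX (29.7%, exact 95% interval 15.9 to 47.0), where 68.6% of all DAXX peaks were gained. For HIRA they were 10 of 40 (25%, 12.7 to 41.2), beside 56.4%. For HJURP they were 5 of 27 (18.5%, 6.3 to 38.1), beside 66.2%. For HIRA+DAXX they were 22 of 62 (35.5%, 23.7 to 48.7), beside 49.9%, and for HIRA+HJURP 27 of 66 (40.9%, 29.0 to 53.7), beside 64.6%. The intervals treat neighbouring peaks as separate, although many share a cluster. The HIRA+DAXX interval took in its whole-list value with windows extended to the gap (27.1 to 51.5). It also did so with peaks within 1000 bp merged (4.66 to 50.8) and with only peaks of at least 500 bp (11.8 to 61.6). Leaving out the widest peak of each list did the same (30.04 to 55.9). That shift is built in, since the 4 HIRA+DAXX peaks that met the widest control peak then counted as gained. The HIRA interval took in its whole-list value with peaks within 1000 bp merged (9.09 to 61.4). With peaks within 10000 bp merged, which leaves few peaks, every interval took in its whole-list value. New coverage was 9.82 kb for DAXX, 6.52 kb for HIRA, 5.41 kb for HJURP, 6.93 kb for HIRA+DAXX and 7.30 kb for HIRA+HJURP.

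The sites show which positions were shared. Of the 47 sites, 17 had a peak in all 6 lists, and these held 75.9% of the site bases. A control peak was present at 20 sites and absent from 27. No site had a peak in control only, and none had one in all 5 knockdowns but not control. A peak was found at 20 sites in control, 29 in DAXX, 27 in HIRA, 23 in HJURP, 36 in HIRA+DAXX and 42 in HIRA+HJURP. Since sites join the peaks of all lists, a list with many peaks of its own also adds to the sites counted. The sites in all lists were 601 to 4871 bp wide. By single bases the lists were less alike, since 12.4 kb, or 26.8% of all covered bases, were covered in all 6 lists and 7.99 kb, or 17.3%, in 1 list.

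The largest group of sites without control was found in both double knockdowns and no other list. It held 8 sites of 137 to 340 bp, all of the 5-base class, with site 23 printed above as the widest. A further 5 sites of 91 to 230 bp were found in HIRA+HJURP only, 4 of them of the 340-base class, and 3 of 123 to 278 bp in HIRA+DAXX only. At 3 sites of the 5-base class, peaks were present after DAXX, HIRA and both double knockdowns but not in control or HJURP. The widest is site 3 (chr10:42360545-42361512), covered over 572 bases in DAXX, 570 in HIRA, 649 in HIRA+DAXX and 816 in HIRA+HJURP. Site 36 (chr10:42536585-42536991), of the 340-base class, was the only site found in HJURP alone.

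**Figure D3:**
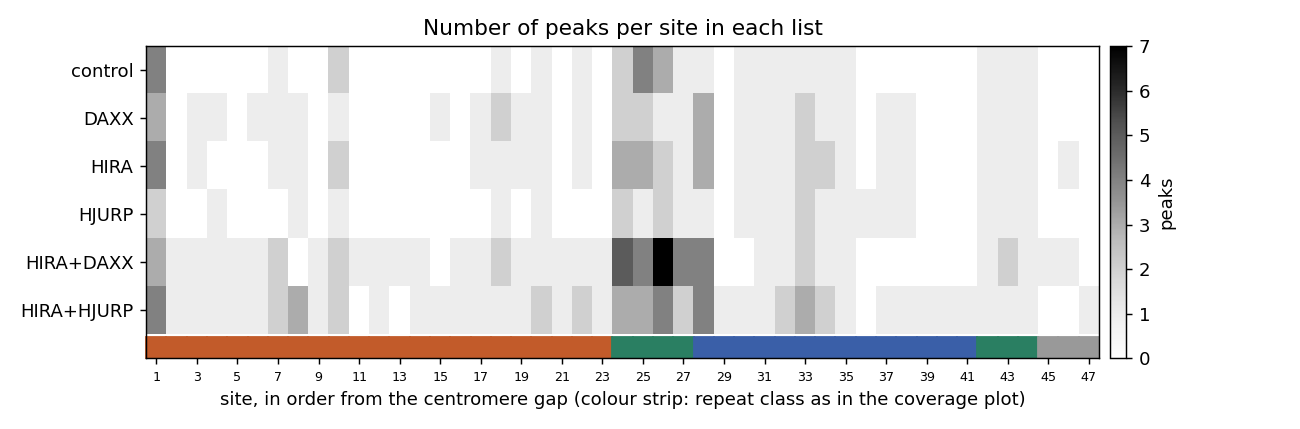
Number of peaks at each of the 47 sites (columns, in order from the centromere gap) in each list (rows), from white for 0 to black for 7, with the repeat class as a colour strip (orange 5-base, green 26-base, blue 340-base, grey no class). Every green column is filled in all lists, whereas most orange columns are empty in control and filled in both double knockdowns.

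The double knockdown lists shared 17.9 kb, which was 72.5% of the HIRA+DAXX and 79.6% of the HIRA+HJURP coverage. DAXX and HIRA peaks shared 29.8 kb, or 81.9% of DAXX and 94.0% of HIRA coverage.

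The repeat classes differed in how their coverage moved, with each peak given the class of its site. By the class of each peak itself, 5-base coverage was 6.44 kb in control, 14.2 kb in HIRA+DAXX and 12.7 kb in HIRA+HJURP. In the 26-base class it was then 12.2, 7.38 and 4.08 kb. In the 5-base class, coverage was 6.11 kb in control, 11.1 kb in DAXX, 8.73 kb in HIRA, 5.61 kb in HJURP, 12.0 kb in HIRA+DAXX and 11.3 kb in HIRA+HJURP. DAXX, HIRA and both double knockdowns were thus above control by ratios of 1.82, 1.43, 1.96 and 1.86, and HJURP was at 0.918, or 1.23 with only peaks of at least 500 bp. With site 1, the widest of the class, left out of every list, the ratios became 2.89 in DAXX, 1.85 in HIRA, 0.943 in HJURP, 3.17 in HIRA+DAXX and 3.11 in HIRA+HJURP. Peaks of this class numbered 10 in control, 16 in DAXX, 14 in HIRA, 7 in HJURP, 26 in HIRA+DAXX and 30 in HIRA+HJURP. Of its 23 sites, 17 had no control peak. HIRA+DAXX and HIRA+HJURP each had a peak at 21 of the 23 sites, against 13 for DAXX, 10 for HIRA, 6 for control and 6 for HJURP. These site counts are partly built in, since sites join the peaks of all lists. In this class 8 sites came from peaks of both double knockdowns only and 2 from HIRA+DAXX peaks only.

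In the 26-base class no site was gained or lost, since all 7 had a peak in every list. The sites join the peaks of all lists, however, and single peaks did differ. Both control peaks that HIRA+HJURP did not meet were of this class (chr10:42386893-42387541 and chr10:42392556-42392892). DAXX, HIRA and HIRA+DAXX each had 1 gained peak in it. Coverage was 12.6 kb in control, 16.1 kb in DAXX, 14.6 kb in HIRA and 15.6 kb in HJURP, and 9.62 kb in HIRA+DAXX and 5.48 kb in HIRA+HJURP. The ratios to control were 1.29, 1.17 and 1.24 for the single knockdowns and 0.766 and 0.437 for the double knockdowns. With peaks within 1000 bp merged, that of HIRA+DAXX was 1.07. Nearly all control bases of this class were kept in the single knockdowns, with 98.0% to 100% of them covered. Of the 26-base stretch in the first cluster, peaks covered 71.0% in control, 80.9% to 90.4% in the single knockdowns, 55.0% in HIRA+DAXX and 30.4% in HIRA+HJURP. The 26-base stretch in the third cluster, beyond the 50 kb gap, gave 63.8% in control, 81.1% to 85.0% in the single knockdowns, 46.5% in HIRA+DAXX and 30.1% in HIRA+HJURP. At both places the order from high to low was the single knockdowns, control, HIRA+DAXX and HIRA+HJURP. Sites 24 (chr10:42383115-42386798) and 25 (chr10:42386852-42389842), which with sites 1, 26 and 28 were the 5 widest, kept the same order. Site 24 was covered over 2199 bases in control, 3573 in DAXX, 3120 in HIRA, 3157 in HJURP, 1883 in HIRA+DAXX and 1014 in HIRA+HJURP. Site 25 was covered over 2384, 2689, 2581, 2978, 1766 and 1055 bases.

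In the 340-base class control had the highest coverage of the lists. It was 10.8 kb in control, 9.18 kb in DAXX, 8.06 kb in HIRA, 8.97 kb in HJURP, 2.78 kb in HIRA+DAXX and 5.45 kb in HIRA+HJURP. The ratios to control were 0.847, 0.744, 0.828, 0.257 and 0.503. Peak number in this class went the other way, with 7 in control and 10 to 20 in the knockdowns. The control peak of site 34, which has the printed cores, was 2639 bp wide, and 1297 of these bases were covered in DAXX, 937 in HIRA, 1051 in HJURP, 322 in HIRA+DAXX and 450 in HIRA+HJURP. The pair of double knockdowns differed in the second cluster, where HIRA+DAXX covered 1.22 kb with 5 peaks and HIRA+HJURP 3.42 kb with 13.

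The directions of the 26-base and 340-base classes did not rest on their widest site. With site 28 left out of every list, the 340-base ratios became 0.827 in DAXX, 0.708 in HIRA, 0.759 in HJURP, 0.169 in HIRA+DAXX and 0.478 in HIRA+HJURP. With site 26 left out of every list, the 26-base ratios were 1.33, 1.19, 1.28, 0.779 and 0.452 in the same order. In the second cluster alone, 340-base coverage was 6.84 kb in control, 5.71 kb in DAXX, 4.83 kb in HIRA and 5.22 kb in HJURP. In the third cluster alone, 26-base coverage was 2.46 kb in control and 3.28 kb in DAXX, 3.12 kb in HIRA and 3.20 kb in HJURP.

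**Figure D4:**
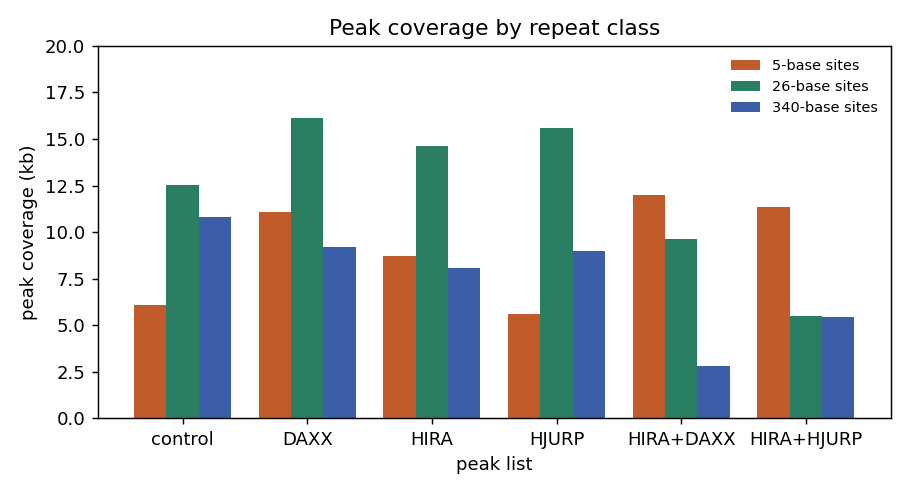
Peak coverage (kb) of each list in the sites of the 3 repeat classes, 1 bar per class with no replicate error. The 5-base bars of DAXX, HIRA and both double knockdowns (8.73 to 12.0 kb) exceed that of control (6.11 kb), while the 340-base bars of all knockdowns are below control (10.8 kb).

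**Figure D5:**
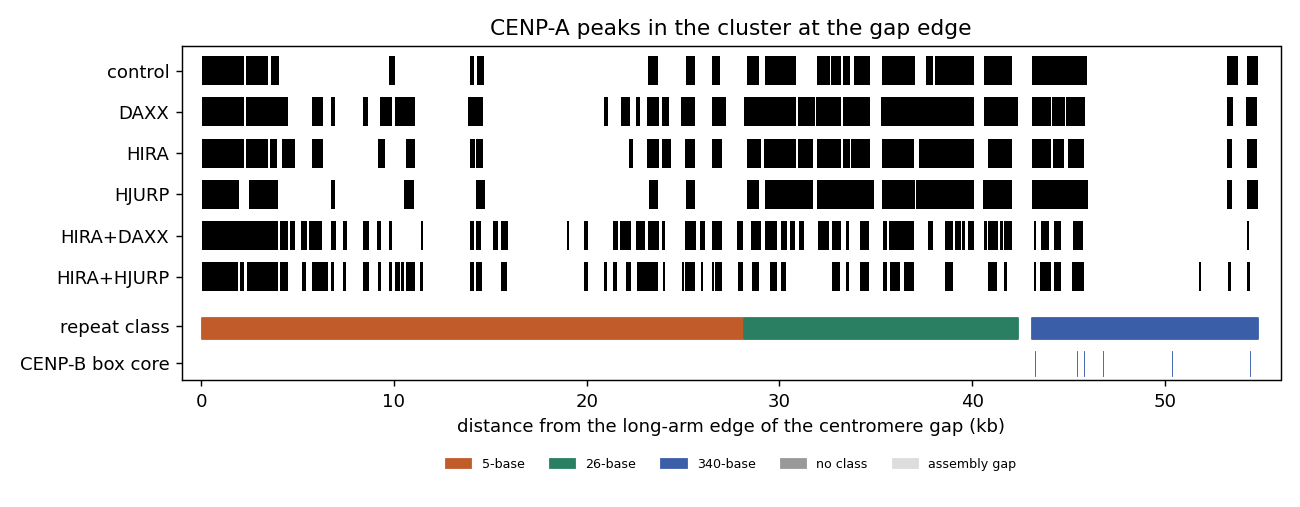
Peaks of the first cluster (black bars, 1 row per list) by distance in kb from the long-arm edge of the centromere gap, with the repeat class and CENP-B box cores below as in the map of all clusters. Between about 5 and 28.1 kb the control and HJURP rows are sparse and the double knockdown rows hold many narrow bars, and from 28.2 to 42.4 kb the single knockdown rows are the most filled.

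At the gap edge itself every list had a wide peak. The first peak was 1924 bp wide in control, 2195 in DAXX, 2176 in HIRA, 1930 in HJURP, 3949 in HIRA+DAXX and 1871 in HIRA+HJURP. Site 1 (chr10:42354950-42359820), which contains it, was covered over 3779, 4378, 4415, 3410, 4603 and 4099 bases in the same order. It is the only site wider than 2 kb at which both double knockdowns covered more bases than control.

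The widest gained peak of each knockdown was of the 5-base class in DAXX (1042 bp, chr10:42364999-42366040), HIRA+DAXX (649 bp, chr10:42360545-42361193) and HIRA+HJURP (816 bp, chr10:42360697-42361512). In HIRA it was of the 26-base class (750 bp, chr10:42385917-42386666) and in HJURP of the 340-base class (585 bp, chr10:42538994-42539578). Gained peaks of the 5-base class were 8 of 11 in DAXX, 6 of 10 in HIRA, 2 of 5 in HJURP, 19 of 22 in HIRA+DAXX and 20 of 27 in HIRA+HJURP.

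Peaks in which most 32-base words occur once in the reference were 19 of 30 in control, 27 of 37 in DAXX, 23 of 40 in HIRA, 18 of 27 in HJURP, 19 of 62 in HIRA+DAXX and 20 of 66 in HIRA+HJURP. With 24-base words the order was different, at 0% in control, 13.5% in DAXX, 5% in HIRA, 11.1% in HJURP, 1.61% in HIRA+DAXX and 4.55% in HIRA+HJURP. A CENP-B box core was inside 6 of 30 peaks in control, 9 of 37 in DAXX, 10 of 40 in HIRA, 9 of 27 in HJURP, 4 of 62 in HIRA+DAXX and 7 of 66 in HIRA+HJURP. Wider peaks have more room for a core, and the part of width in these shares was not tested.

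Chromosomes 1, 7 and 16 also had many peaks within 5 Mb of their centromere gaps, and their values are set side by side with no test. By the class of each peak, 5- and 26-base repeats made up 63.3% of the control coverage on chromosome 10, 26.8% on chromosome 16, 5.28% on chromosome 7 and 0% on chromosome 1. Coverage ratios to control for HIRA+DAXX were 0.835 on chromosome 10, 0.369 on chromosome 16, 0.254 on chromosome 7 and 0.600 on chromosome 1. For HJURP they were 1.02, 0.596, 0.712 and 2.66. With peaks counted up to the gap on both sides, the long arm held all peaks on chromosome 7. On chromosome 10 it held 92.5% to 97.6% of the peaks of each list. On chromosome 16 it held 27 of 38 in control, 24 of 40 in DAXX, 28 of 56 in HIRA and 23 of 36 in HJURP. There it held 62 of 93 in HIRA+DAXX and 66 of 105 in HIRA+HJURP. On chromosome 1 it held 11 of 17 in control, 25 of 37 in DAXX, 27 of 36 in HIRA and 29 of 39 in HJURP. The double knockdowns there had 17 of 21 (HIRA+DAXX) and 32 of 40 (HIRA+HJURP).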

How the data were processed

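CENP-A native ChIP-Seq was analysed as 6 merged replicated peak lists, 1 per condition. The deposited files hold each peak's chromosome, start and end, and no count, score or p-value. Per the methods and the submitters' processing notes, the authors used Trimmomatic for trimming and Bowtie2 2.2.6 for alignment to hg19, filtered with SAMtools at a minimum mapping quality of 10, called peaks with MACS against each library's own input, merged peaks with bedtools and kept those overlapping peaks of at least 3 replicates. The rule used for the 2-replicate double knockdowns is not given in the sources used here. Depth is unknown from the lists. The paper lists read depths by sample and describes sequencing in single- or paired-end mode, and neither was taken into account here.

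Coverage was the summed length of the peaks, and coordinates are printed 1-based. Sites joined overlapping or touching peaks of any list. A site took the class of the shift (5, 26, 171 or 340 bases) with the highest self-identity, if at least 0.4 (the longer pair is the 340-base class), and a shorter shift that divides the best one was preferred within 0.05. Copies of 32-base words were counted over the GRCh37 chromosomes, both strands. The design also planned the share of lower-case masked bases, but the reference given is all in capitals, so that share was not computed. Intervals are exact Clopper-Pearson (95%), and a count of 0 was given a limit of 3 counts. With 1 list per condition there was no test. Python 3.11.15, numpy 2.4.6, scipy 1.17.1, numba 0.67.0 and matplotlib 3.10.9 were used. On simulated data the scripts returned 200 of 200 interval sets, 40 of 40 planted repeats, 40 of 40 random sequences and 2 of 2 word sizes as made.

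Named regions were, by rule, the 5 widest sites, the 3 widest in all lists, the 3 widest in all knockdowns but not control or in control only (none existed), each knockdown's widest gained peak, the nearest and farthest peaks, and genes overlapped or flanking. The members, lists and rules were chosen with earlier results of these data known. Alternatives were a minimum width, merging of nearby peaks, windows extended to the centromere gap, removal of the widest peak, coverage of at least 50%, share of bases, 24-base words and 3 tandem copies. Sequencing reads were not analysed here, and 1 sequence is not reported here.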

Additional observations from a re-analysis of the deposited data

How the results depend on the processing

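Long-arm peaks stayed at 100% in each list except with windows extended to the centromere gap, where it was 92.5% in HIRA+DAXX, 93.0% in HIRA+HJURP and 93.8% to 97.6% in the other lists. With that extension the coverage ratio of HJURP was 0.977. With only peaks of at least 500 bp, HIRA+DAXX and HIRA+HJURP gave coverage ratios of 0.490 and 0.344, peak number ratios of 0.75 and 0.5, and kept shares of control peaks of 55% and 35%. HJURP then had a peak number ratio of 1, and HIRA+HJURP a gained share of 10%. With peaks within 1000 bp merged, the coverage ratios were 1.15 for HIRA+DAXX and 1.08 for HIRA+HJURP, above control rather than below it. Peak number ratios became 0.909 for DAXX, 1.18 for HJURP and 1.27 for HIRA+DAXX, kept shares 100% for both double knockdowns, and the gained share of HIRA+DAXX 21.4%. Merging within 10000 bp, which leaves few peaks, gave peak number ratios of 1 for DAXX and HJURP and 1.33 for both double knockdowns, a coverage ratio of 1.15 for HIRA+HJURP, kept shares of 100% for HIRA, HJURP and both double knockdowns, and gained shares of 0% for DAXX and HJURP and 25% for HIRA+HJURP. When a control peak counted as kept only at 50% coverage or more, the kept share was 80% for HIRA+DAXX and 60% for HIRA+HJURP. Without the widest member it was 82.8% for HIRA+DAXX. This last drop is built in, since the widest HIRA+DAXX peak, at the gap edge, met several control peaks. Shorter words of 24 bases lowered the share of peaks with mostly single-copy words to 0% in control, 13.5% in DAXX, 5% in HIRA, 11.1% in HJURP, 1.61% in HIRA+DAXX and 4.55% in HIRA+HJURP. With at least 3 tandem copies of the word, the share of peaks holding it was 56.7% in control and 51.6% in HIRA+DAXX.

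The coverage ratios by repeat class were tried under alternatives chosen after seeing the data. Without the widest member the 340-base ratios were 1.15 for DAXX, 1.01 for HIRA and 1.12 for HJURP, and the 26-base ratios 0.902 for DAXX and 0.937 for HIRA. These turns are built in, since that member is a 340-base peak in control and a 26-base peak in the single knockdowns, so each class lost a peak from 1 side of the ratio only. With the widest site of a class removed from every list, no class ratio changed direction, the 340-base ratio of HIRA+DAXX was 0.169, and the 5-base ratios were 2.89 for DAXX, 3.17 for HIRA+DAXX and 3.11 for HIRA+HJURP. With only peaks of at least 500 bp, the ratios of HIRA+DAXX and HIRA+HJURP were 0.0513 and 0.163 in 340-base sites and 0.418 and 0.149 in 26-base sites, and the 5-base ratio of HJURP was 1.23. With peaks within 1000 bp merged, the 26-base ratio of HIRA+DAXX was 1.07 and the 5-base ratio of HIRA+HJURP 2.79. The cause of the other shifts was not tested beyond what each alternative removes or joins.

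The other 160 values moved less than the limits set, which were 1.5 times for ratios and the exact 95% interval for shares. Since the lists keep no replicate apart, leaving out a replicate was not done. No paired analysis was possible because each condition has 1 merged list and no result comes from a test. Which peaks were not found for lack of reads cannot be told from lists without counts.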
